A study of Mus musculus with 16 samples.

Results

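Fatty acid synthesis and desaturation genes were followed across mouse brain libraries that differ in the oxysterol enzyme Ch25h and in tau. The 10 genes were Srebf1, Fasn, Acaca, Acly, Scd1, Scd2, Elovl5, Elovl6, Fads1 and Fads2, chosen by name from the 54532 entries of a table of raw counts, and each was found. All 10 were among the 17736 genes that passed the filter on low counts. The mice were female and 9 months old, and the 16 libraries formed 4 groups of 4, which were Ch25h+/+ Tau- and Ch25h-/- Tau- without tau and Ch25h+/+ Tau+ and Ch25h-/- Tau+ with it. Ch25h-/- animals lack an enzyme that hydroxylates cholesterol at its side chain. Tau+ is taken to mean a tau transgene, whose allele and promoter are not given in the sources used here. The strain, and whether any animals were littermates, are also not given, and the labels do not say whether the 4 libraries of a group are separate animals, so p-values measure the spread between these libraries.

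Fatty acids are built in the cytosol. Acly cleaves citrate to acetyl-CoA, Acaca carboxylates it to malonyl-CoA, and Fasn joins these units into palmitate. Elovl6 lengthens palmitate to stearate, Scd1 and Scd2 put the first double bond into saturated chains, and Fads1, Fads2 and Elovl5 turn essential fatty acids into long polyunsaturated ones. Srebf1 encodes the SREBP-1 transcription factors, which drive most of these genes, and the SREBP-1c form is itself transcribed under LXR, a receptor for oxysterols. In brain, much of this synthesis serves the membranes and myelin made by glia.

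Depth was 15530352 to 25602500 counts per library. Levels are given as CPM, the usual depth-scaled unit, on library sizes scaled by TMM, and Elovl6, at 608 to 1372 counts in a library, had the fewest counts of the 10 genes. Each Ch25h+/+ library had 5 to 30 Ch25h counts and each Ch25h-/- library 0, which allows up to 0.117 to 0.193 CPM (3 counts of the total). Prnp, whose promoter drives some tau transgenes, was at 708 to 839 CPM in the Tau- and at 1414 to 1935 CPM in the Tau+ libraries. The tissue is frontal cortex by the labels but hippocampus by the design text, and 6 cortex markers summed to 629 to 851 CPM against 33.3 to 74.7 CPM for 6 hippocampus markers. Ribosomal RNA (CT010467.1) was at 2289 to 5684 CPM (on total counts) in 7 libraries, all Ch25h-/-, and at 111 to 475 CPM in the other 9, which comprised all 8 Ch25h+/+ libraries and Ch25h-/- Tau+ replicate 1. In the 7 rRNA-rich libraries expression ran against the GC content of genes (Spearman correlation across genes -0.400 to -0.263, against 0.0868 to 0.374). Ch25h loss and this library class therefore cannot be told apart except through that 1 library. In Tau- they coincide in every library, so values of Ch25h loss in Tau- with a covariate for class rest on that Tau+ library.

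Among the 10 genes, Srebf1 alone passed the test for Ch25h loss, and only in Tau+, where it was 0.676-fold its level with Ch25h. The call was lost with a covariate for library class (log2 fold change -0.43, standard error 0.16, edgeR adjusted p 0.890). It was also lost with GC-corrected offsets (-0.40, standard error 0.10, edgeR adjusted p 0.0687). Without either, the log2 fold change was -0.57 (standard error 0.10). None of the 9 enzyme genes passed in any comparison, and Elovl6 came nearest to it. In the edgeR quasi-likelihood test with Benjamini-Hochberg adjustment over all genes, 1 of the 10 passed an adjusted p of 0.05 for Ch25h loss in Tau+, where 3.55% of all genes passed. None of the 10 passed for the tau effect in Ch25h+/+ (1.56% of all genes), the tau effect in Ch25h-/- (0.0395%), Ch25h loss in Tau- (1.03%) or the interaction of Ch25h loss and tau (0.0338%). At an unadjusted p under 0.05, the same edgeR test gave 2 of the 10 for the tau effect in Ch25h+/+, 0 for the tau effect in Ch25h-/-, 1 for Ch25h loss in Tau-, 2 for Ch25h loss in Tau+ and 1 for the interaction. The shares of all genes at that p were 9.38%, 3.68%, 20.9%, 23.9% and 4.13%. The median log2 fold change of the 10 genes was 0.05, 0.06, 0.00, 0.01 and 0.01 in the 5 comparisons in that order of naming, against -0.01, 0.01, 0.01, 0.00 and 0.02 over all genes. A count of 0 or 1 of 10 genes is near the share of all genes that passed.

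**Figure D1:**
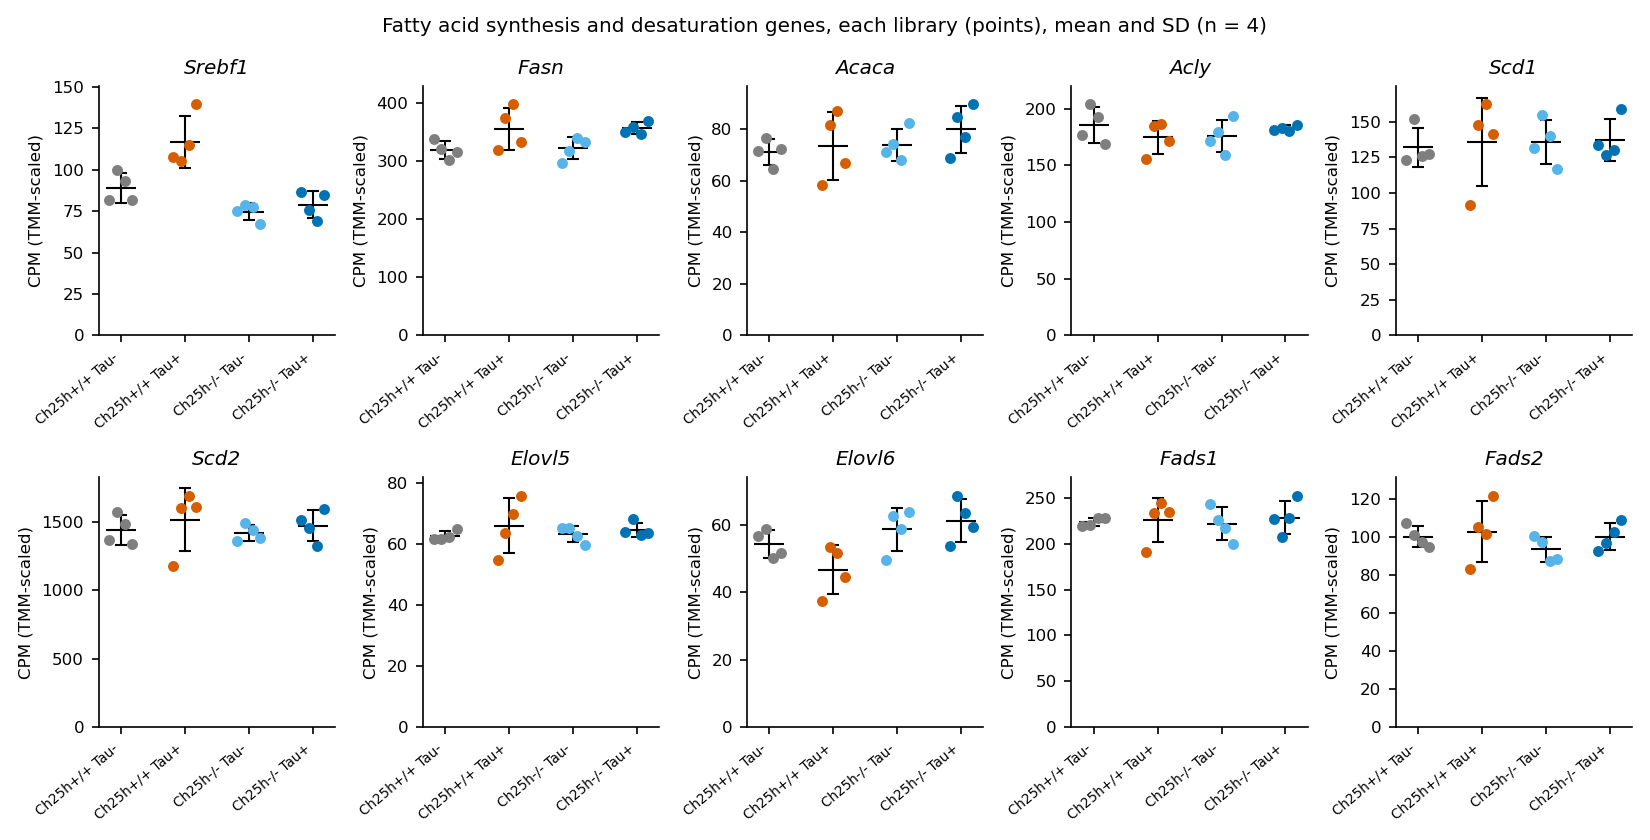
Each panel plots the CPM of 1 gene (vertical axis, from 0) in the 4 groups (horizontal axis), with a point per library and the mean and SD of 4 libraries. Srebf1 is at 105.1 CPM or more in the 4 Ch25h+/+ Tau+ libraries and at 99.99 CPM or less in the other 12, while the points of the other genes overlap between most groups.

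Per kilobase of exon, Scd2 was the most abundant of the 10 genes by a wide margin, with a mean of 268 CPM per kb over the 16 libraries (range 215 to 309). Fads1 came next at 46.9 (39.8 to 52.5), and its lowest library lay above the highest of Acly. Acly at 34.0, Fasn at 30.9, Fads2 at 30.1 and Scd1 at 27.6 CPM per kb overlapped with one another, and Elovl5 at 18.2 and Srebf1 at 15.96 overlapped with each other. Elovl6 at 8.60 (5.82 to 10.7) and Acaca at 4.37 (3.43 to 5.25) were lower than each of the other 8 genes in every library range. The related isoforms were lower still, with Scd3 at 1.78, Acacb, the mitochondrial acetyl-CoA carboxylase, at 0.915 and Scd4 at 0.161 CPM per kb. Scd1 and Scd2 are close copies of one another, and how shared reads were counted is not stated, so the split between them is uncertain.

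Srebf1 lies on the minus strand of chromosome 11 (chr11:60199089-60222581, GRCm38, ENSMUSG00000020538.15). It stood at 82.0, 99.99, 93.2 and 81.5 CPM in the Ch25h+/+ Tau- libraries and at 107.9, 105.1, 115.2 and 139.4 CPM in the Ch25h+/+ Tau+ libraries. In Ch25h-/- it stood at 75.4, 79.0, 77.3 and 67.2 CPM without tau and at 86.7, 75.8, 68.8 and 84.6 CPM with tau. The Ch25h+/+ Tau+ group was therefore above all 12 other libraries, and both Ch25h-/- groups overlapped with each other. Of all 17736 tested genes, 1.53% had this group above all 12 other libraries and 2.11% had any 1 of the 4 groups there. No other gene of the 10 had such a group.

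With Ch25h loss in Tau+, Srebf1 fell from 116.9 ± 15.6 to 78.9 ± 8.24 CPM (SD, n = 4), a log2 fold change of -0.57 (standard error 0.10, 95% interval -0.77 to -0.36). The edgeR adjusted p was 0.00562. The call held in each of the 16 fits that left out 1 library, with log2 fold changes of -0.63 to -0.48 and edgeR adjusted p of 0.00374 to 0.0319. With the covariate for library class the log2 fold change was -0.43, and with GC-corrected offsets it was -0.40. Srebf1 is rich in GC, at 58.4% of its longest transcript, the highest share of the 10 genes. The only rRNA-poor Ch25h-/- Tau+ library had 86.7 CPM, the highest of the 8 Ch25h-/- libraries, of which the other 7 are rRNA-rich, and below the 4 Ch25h+/+ Tau+ libraries, which are rRNA-poor. The part of library class in the fall was not tested beyond these fits.

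The other comparisons of Srebf1 did not pass. Tau in Ch25h+/+ gave a log2 fold change of 0.39 (standard error 0.10, 95% interval 0.18 to 0.60), with no overlap of the libraries (as in 5.86% of all genes) and an edgeR adjusted p of 0.0546. That p was under the threshold without the filter on low counts (edgeR 0.0185), with DESeq2 (0.0146) and with limma-voom with quality weights per library (0.0217). It was also under it in 4 of the 16 edgeR fits that left out 1 library. Without Ch25h+/+ Tau+ replicate 4, the highest library, the value was 0.30 and the edgeR adjusted p 0.263. Ch25h loss in Tau- gave -0.25 (95% interval -0.46 to -0.05, edgeR adjusted p 0.157), again with no overlap of the libraries (as in 16.2% of all genes). With GC-corrected offsets it was -0.06, and with the covariate for library class -0.07 (standard error 0.19, against 0.10 without it). In Tau- the library class follows Ch25h in every library, so that covariate value rests on Ch25h-/- Tau+ replicate 1. Tau in Ch25h-/- gave 0.08 (95% interval -0.13 to 0.29). The difference between the 2 tau effects was -0.31 (standard error 0.14) with an unadjusted p of 0.0399 and an edgeR adjusted p of 1, so the tau effects are not shown to differ.

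**Figure D2:**
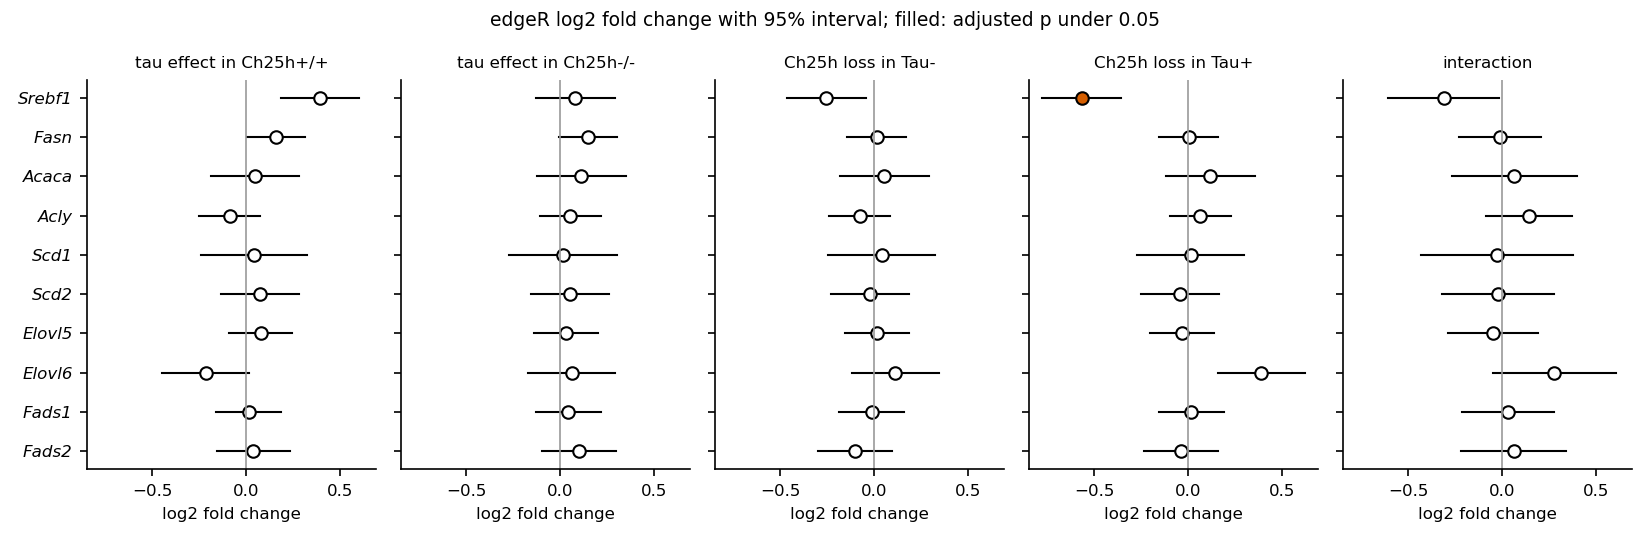
Each panel plots, for 1 comparison, the edgeR log2 fold change of the 10 genes (points) with its 95% interval (lines), and a filled point marks an adjusted p under 0.05. Srebf1 for Ch25h loss in Tau+ is the only filled point at -0.57, and the intervals of the 8 genes other than Srebf1 and Elovl6 lie within -0.43 and 0.40.

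The gene has several start sites, and a table of RefSeq promoters (GRCm38.p6) held 3 windows for Srebf1, while the counts sum over all its transcripts and do not separate SREBP-1a from SREBP-1c. The window shown, the more downstream of 2 that lie inside the gene, was chosen because it is the one that holds LXR element letters. It overlaps no exon annotated in GENCODE M21. It spans the 250 bases before the start, 5′ to 3′ on the minus strand, and capitals mark CCAAT and GGGCGG boxes and an LXR element pattern (GGTTACT, any base, then GCGG) on either strand.
Srebf1 chr11:60210472-60210721: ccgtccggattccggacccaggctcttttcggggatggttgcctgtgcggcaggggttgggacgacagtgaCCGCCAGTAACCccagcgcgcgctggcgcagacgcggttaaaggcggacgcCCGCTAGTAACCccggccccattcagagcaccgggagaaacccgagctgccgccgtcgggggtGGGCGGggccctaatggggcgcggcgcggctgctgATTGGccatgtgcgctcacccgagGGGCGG
The LXR element pattern was matched 2 times here, on the reverse strand, in the 2 longest runs of capitals, which begin 179 and 128 bases before the start. The pattern was chosen after the sequence was seen. It occurs in 2 of 32851 promoter windows of the same length (0.00609%), of which this window is 1, so that share is no test. The window also holds 1 CCAAT box, 30 bases before the start, a motif read by NF-Y and found in 33.9% of all windows on either strand. The GGGCGG box, read by Sp1 and found in 32.7% of windows, occurs here 2 times, 65 and 6 bases before the start. No match was found to the sterol regulatory element TCACNCCAC, present in 1.05% of windows, in any of the 9 windows of the 7 members that had one.

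Srebf1 also shares 109 of its 5634 exonic bases with Rai1 on the opposite strand and 66 with the microRNA gene Mir6922. The use of strand in counting is not stated, so reads in those bases cannot be assigned with certainty.

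Acly, the enzyme that supplies cytosolic acetyl-CoA, averaged 185.4 ± 15.6 CPM in Ch25h+/+ Tau-, 174.6 ± 14.4 in Ch25h+/+ Tau+, 175.8 ± 14.1 in Ch25h-/- Tau- and 182.6 ± 2.42 in Ch25h-/- Tau+ (SD, n = 4). Acaca, the enzyme of the committed step, averaged 71.2 ± 5.03, 73.5 ± 13.2 and 73.9 ± 6.20 CPM in the first 3 of these groups (SD, n = 4), and was at 68.8 to 89.6 CPM in the libraries of the last. In each comparison the libraries of both genes overlapped.

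Fasn, the multifunctional synthase, was at 337.7, 320.9, 301.1 and 315.6 CPM in Ch25h+/+ Tau- and at 318.6, 373.4, 397.2 and 333.4 CPM in Ch25h+/+ Tau+. In Ch25h-/- its libraries were at 297.0, 318.0, 339.2 and 332.8 CPM without tau and at 350.4, 358.9, 346.6 and 369.5 CPM with tau. The 4 Ch25h-/- Tau+ libraries lay above the 4 Ch25h-/- Tau- libraries, as was the case, in either direction, for 2.14% of all genes. The log2 fold change with tau was 0.15 in Ch25h-/- (95% interval -0.01 to 0.30, edgeR adjusted p 1) and 0.16 in Ch25h+/+ (0.00 to 0.31, edgeR adjusted p 0.520). For Ch25h loss in Tau+, where Srebf1 fell, Fasn had a log2 fold change of 0.00 (standard error 0.07, 95% interval -0.15 to 0.16), or 0.900- to 1.12-fold. With GC-corrected offsets the value was 0.16 (standard error 0.09), beyond the upper end of that interval (edgeR adjusted p 0.377).

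The Fasn window is shown beside that of Srebf1 because the protein of one is a known regulator of the other. It spans the 250 bases before the start on the minus strand, with CCAAT boxes in capitals on either strand.
Fasn chr11:120824548-120824797: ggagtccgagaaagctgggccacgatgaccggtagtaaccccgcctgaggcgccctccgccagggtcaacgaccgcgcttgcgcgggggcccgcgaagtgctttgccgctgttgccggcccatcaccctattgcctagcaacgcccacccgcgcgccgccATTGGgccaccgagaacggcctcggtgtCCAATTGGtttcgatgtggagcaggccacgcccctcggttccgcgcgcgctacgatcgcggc
It holds 3 CCAAT matches, 90, 62 and 59 bases before the start, of which the last 2 overlap on opposite strands. No GGGCGG box and no match to the sterol element pattern lie in it.

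The ratio of Srebf1 to Fasn counts within a library does not depend on how libraries are scaled, and was added after the values were seen. Its mean log2 was -1.84 in Ch25h+/+ Tau-, -1.61 in Ch25h+/+ Tau+, -2.11 in Ch25h-/- Tau- and -2.18 in Ch25h-/- Tau+. With Ch25h loss in Tau+ it was lower by a log2 of -0.57, with no overlap of the libraries, which held for the ratio to Fasn of 9.66% of tested genes. The log2 ratio of Srebf1 to Scd1 was -0.57, -0.19, -0.86 and -0.80 in the 4 groups, and the libraries did not overlap for Ch25h loss in Tau- (-0.29) or in Tau+ (-0.61), against 3.98% and 4.38% of tested genes set against Scd1. The pairs were picked with the fall of Srebf1 and the flat values of both enzymes known, so the ratios are no separate evidence of it. With the class covariate the log2 fold change of Srebf1 less that of Scd1 was -0.06 in Tau- and -0.41 in Tau+, and with GC-corrected offsets it was -0.04 and -0.35. Less that of Fasn it was -0.05 and -0.41 with the covariate and -0.26 and -0.56 with the offsets. Fasn has nearly the GC content of Srebf1 (57.9% against 58.4%), while Scd1 has 47.1%.

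**Figure D3:**
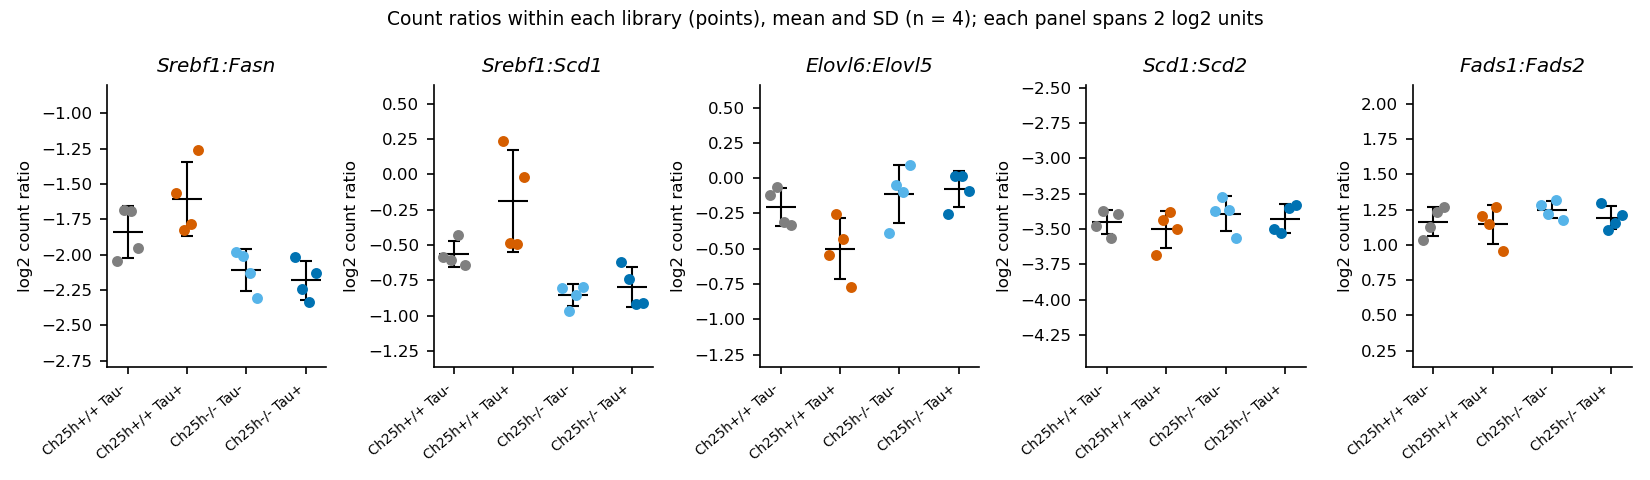
Each panel plots the log2 ratio of the counts of 2 genes within a library (points), with the mean and SD of 4 libraries per group, on axes of equal span. Srebf1 to Fasn and Srebf1 to Scd1 are lower in Ch25h-/- Tau+ than in Ch25h+/+ Tau+ with no overlap, Elovl6 to Elovl5 is higher by a narrow gap, and the ratios of Scd1 to Scd2 and of Fads1 to Fads2 overlap in all groups.

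Scd1 and Scd2, the stearoyl-CoA desaturases, both lie on chromosome 19 (chr19:44394455-44407879 and chr19:44293674-44306864). Scd1 was at 122.8, 152.0, 125.8 and 127.0 CPM in Ch25h+/+ Tau- and at 91.4, 147.6, 162.0 and 141.5 CPM in Ch25h+/+ Tau+. Its Ch25h-/- libraries were at 131.7, 154.4, 139.8 and 116.8 CPM without tau and at 133.3, 126.4, 130.0 and 158.8 CPM with tau. Every pair of groups overlapped, and the widest spread was within Ch25h+/+ Tau+. Scd2, the main form in brain, averaged 1441 ± 108.2, 1517 ± 232.1, 1419 ± 58.5 and 1472 ± 113.1 CPM in the Tau- and Tau+ groups of Ch25h+/+ and then in those of Ch25h-/- (SD, n = 4). The mean log2 ratio of Scd1 to Scd2 counts was -3.45, -3.50, -3.39 and -3.43 in those groups, and overlapped in each comparison.

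Both Scd genes lie within 10 Mb of Ch25h itself, at 9.92 Mb for Scd1 and 9.82 Mb for Scd2. In the 10 Mb on either side of Scd1, 16 of 167 genes tested passed for Ch25h loss in Tau+ (9.58%, against 3.55% of all genes), Ch25h among them, and neither Scd gene did. The window of Fads1, which lies with Fads2 at 24.3 and 24.4 Mb from Ch25h on the same chromosome, held 257 tested genes of which 8.17% passed. A difference in flanking DNA between the Ch25h genotypes was not tested.

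Elovl6 (chr3:129532355-129638495, plus strand, ENSMUSG00000041220.10) encodes the enzyme that lengthens palmitate. It was at 56.6, 58.9, 50.3 and 51.5 CPM in Ch25h+/+ Tau- and at 37.5, 53.4, 51.6 and 44.4 CPM in Ch25h+/+ Tau+. In Ch25h-/- it was at 49.6, 62.7, 58.7 and 63.8 CPM without tau and at 53.7, 68.6, 63.5 and 59.5 CPM with tau. All 4 Ch25h-/- Tau+ libraries lay above all 4 Ch25h+/+ Tau+ libraries, though the nearest pair, at 53.39 and 53.68 CPM, was close. Such a lack of overlap in either direction was seen in 10.2% of all genes in this comparison and in 2 of the 10, Srebf1 and Elovl6.

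The log2 fold change of Elovl6 for Ch25h loss in Tau+ was 0.39 (standard error 0.11, 95% interval 0.16 to 0.62), a 1.31-fold difference with an edgeR adjusted p of 0.0580. It passed the threshold with no filter on low counts (edgeR 0.0319), with genes of at least 50 mean counts (edgeR 0.0469) and with DESeq2 (0.0194). It also passed with limma-voom with quality weights (0.0236) and in 3 of the 16 edgeR fits without 1 library. It was 0.29 without Ch25h+/+ Tau+ replicate 1, the library with the lowest value (edgeR adjusted p 0.137), 0.20 with the covariate for library class (0.976) and 0.27 with GC-corrected offsets (0.188). The tau effect in Ch25h+/+ was -0.22 (95% interval -0.45 to 0.02, edgeR adjusted p 0.589). In GC content Elovl6 is the lowest of the 10 genes, at 44.0%.

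Elovl5, which lengthens polyunsaturated chains and has a similar GC content of 44.8%, averaged 62.5 ± 1.61, 65.9 ± 8.93, 63.1 ± 2.53 and 64.5 ± 2.36 CPM in the Tau- and Tau+ groups of Ch25h+/+ and then in those of Ch25h-/- (SD, n = 4). The log2 ratio of Elovl6 to Elovl5 counts was -0.50 on average in Ch25h+/+ Tau+ and -0.08 in Ch25h-/- Tau+, higher by 0.42. With the library class covariate the log2 fold change of Elovl6 less that of Elovl5 was 0.24, and with GC-corrected offsets it was 0.41. The libraries did not overlap, as for the ratio to Elovl5 of 7.14% of tested genes, but by a narrow margin, with a highest log2 ratio of -0.2537 in Ch25h+/+ Tau+ and a lowest of -0.2504 in Ch25h-/- Tau+. In Tau- the same ratio was -0.20 and -0.11, with overlap. Elovl6 shares 34 exonic bases with the antisense gene Gm35986.

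The promoter window of Elovl6 held none of the motifs searched, which says only that these letters are absent there. The search also covered the E-box CACGTG, found in 6.02% of windows and of the members only in that of Elovl5, and an LXR element in which AGGTCA is repeated after any 4 bases, found in 0.0152% of windows and in none of the members. Acly and Fads2 held GGGCGG boxes and Elovl5 held CCAAT boxes. Scd1, Scd2 and Fads1 had no window in the table.

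Elovl6 also has neighbours that differed between the groups. Of the 106 tested genes within 10 Mb of it, 5 passed for the tau effect in Ch25h+/+ (4.72%, against 1.56% of all genes). Alpk1 and Tifa were higher there, and Mettl14, Ndst3 and Zgrf1 were lower. Tifa, Alpk1 and Zgrf1 lie 1.74, 1.86 and 1.98 Mb from Elovl6. For Ch25h loss in Tau+, 4 of the 106 were higher and none was lower (3.77%, against 3.55% of all genes), those being Cxxc4, Fnbp1l, Ndst3 and Sec24b. These neighbours were chosen after their values were seen, and their part in the Elovl6 values was not tested.

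Fads1 and Fads2 encode the delta-5 and delta-6 desaturases, which act on essential fatty acids. Fads1 averaged 224.3 ± 4.58, 226.4 ± 23.9, 222.2 ± 18.3 and 229.0 ± 18.2 CPM in the Tau- and Tau+ groups of Ch25h+/+ and then in those of Ch25h-/- (SD, n = 4). Fads2 averaged 100.2 ± 5.46, 102.9 ± 15.8, 93.4 ± 6.502 and 100.2 ± 7.14 CPM in the same groups (SD, n = 4). The mean log2 ratio of Fads1 to Fads2 counts was 1.16, 1.14, 1.25 and 1.19, with overlap in each comparison.

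The 8 genes other than Srebf1 and Elovl6 had log2 fold changes of -0.09 to 0.16 for the tau effect in Ch25h+/+, 0.02 to 0.15 for the tau effect in Ch25h-/-, -0.10 to 0.05 for Ch25h loss in Tau- and -0.04 to 0.12 for Ch25h loss in Tau+. Their edgeR adjusted p was 0.520 or more in each. The outer 95% bounds over the 8 were 0.842- to 1.25-fold, 0.8294- to 1.27-fold, 0.814- to 1.25-fold and 0.8291- to 1.28-fold in these comparisons. For the interaction the bounds were wider, at 0.743- to 1.32-fold.

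**Figure D4:**
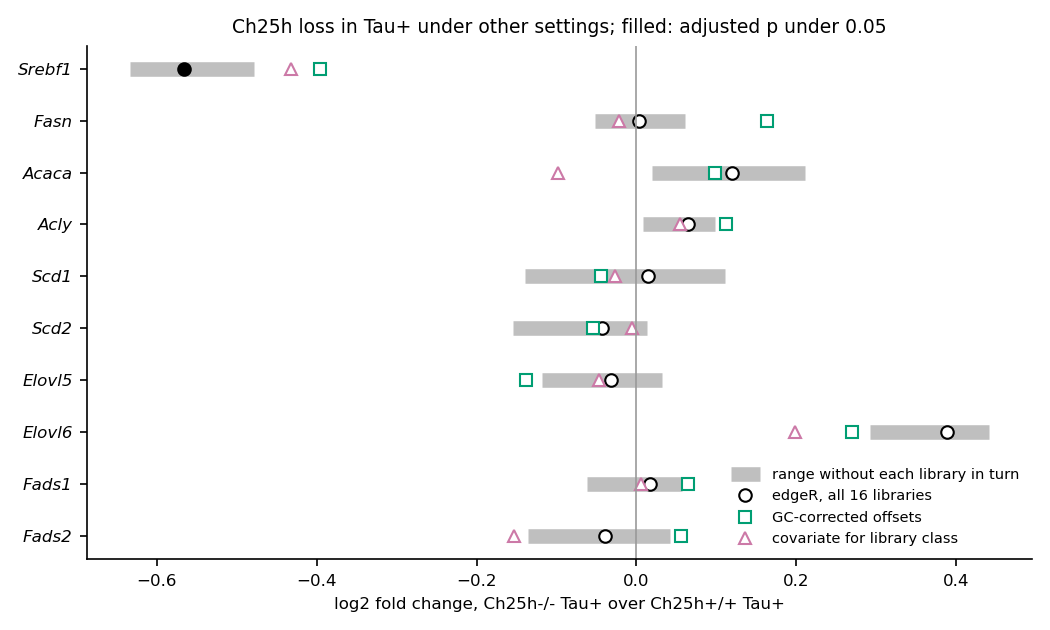
The horizontal axis is the log2 fold change of Ch25h-/- Tau+ over Ch25h+/+ Tau+ for the 10 genes, with circles for the fit of all 16 libraries, grey bars for the range over fits without 1 library each, squares for GC-corrected offsets and triangles for the covariate for library class, and filled symbols for an adjusted p under 0.05. Srebf1 stays between -0.63 and -0.40 and Elovl6 between 0.20 and 0.44 in these fits, and Srebf1 in the fit of all 16 libraries is the only filled symbol.

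A single library set much of the spread. Ch25h+/+ Tau+ replicate 1 was the lowest of all 16 libraries for 8 of the 10 genes, the exceptions being Srebf1 and Fasn. The mean of the 10 genes' standardized log2 CPM was -1.76 in that library and between -0.44 and 1.06 in the other 15. Its summed astrocyte markers were also the lowest of the 16 at 2765 CPM, against 4362 to 4990 CPM in the other 3 Ch25h+/+ Tau+ libraries and 2966 to 4145 CPM elsewhere. Its summed neuron markers were the lowest too, at 8133 CPM, against 8546 to 10450 CPM in the other 15. Its oligodendrocyte markers summed to 2840 CPM, below the 3445 to 5188 CPM of those 3 but within the 2166 to 3996 CPM of the other groups. The part of these cell types in the members' levels was not tested. In bulk tissue, fewer cells of a type and less RNA per cell cannot be told apart.

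Genes whose log2 CPM followed the mean of the 10 most closely over the 16 libraries, among 13950 genes above a mean log2 CPM of 1, were Gm26833 (Pearson r 0.914), Micall1 (0.893), Ldlrad4 (0.890), Megf10 (0.889) and Agap1 (0.888). Without Ch25h+/+ Tau+ replicate 1 these values were 0.841, 0.774, 0.782, 0.763 and 0.764 over 15 libraries. The libraries share their scaling and their groups, so these values are given as a description.

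Microglia markers were highest in the same libraries as Srebf1. The 6 microglia markers summed to 441 to 559 CPM in the 4 Ch25h+/+ Tau+ libraries, where Srebf1 was highest, and to 282 to 351 CPM in the other 12. Of these markers 4 were higher with tau in Ch25h+/+ and 5 were lower with Ch25h loss in Tau+ by the edgeR test, and none was at 0. C1qa, a complement component made by microglia, was also lower for the interaction. Gfap, the intermediate filament of astrocytes, was the only one of 6 astrocyte markers that passed, in the same 2 comparisons. These marker calls are from the edgeR fit without the covariate for library class and without GC-corrected offsets. For Ch25h loss in Tau+ those alternatives cut the calls over all genes from 629 to 10 and 204. None of 10 oligodendrocyte, 6 neuron or 6 choroid plexus markers passed in any comparison, though the choroid plexus sum ran from 15.1 to 2753 CPM. The 5 adipocyte markers summed to at most 0.370 CPM, which was too low for a test. The part of microglia and astrocytes in the Srebf1 values was not tested.

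Genes around the pathway were read in 8 lists with 104 distinct genes, of which 102 were tested. By the edgeR test 4 passed for the tau effect in Ch25h+/+ (1.56% of all genes did), 0 for the tau effect in Ch25h-/- (0.0395%), 2 for Ch25h loss in Tau- (1.03%), 6 for Ch25h loss in Tau+ (3.55%) and 0 for the interaction (0.0338%). The library class covariate and the GC-corrected offsets each ended all 5 calls of Ch25h loss in Tau+ other than that of Apoe, and both in Tau-. Of these alternatives only the class covariate ended the Apoe call. With that covariate the log2 fold changes of Ch25h loss in Tau+ were -0.75 for Apoe (edgeR adjusted p 0.437), 0.40 for Idi1 and 0.38 for Hsd17b7, close to their values without it. Those of Mbtps2, Mid1ip1 and Rxrb shrank to 0.07, -0.14 and -0.03. With GC-corrected offsets the 6 were at -0.64 for Apoe, 0.33 for Idi1, 0.29 for Hsd17b7, 0.17 for Mbtps2, -0.26 for Mid1ip1 and -0.15 for Rxrb. Hacd4, one of the 2 calls of Ch25h loss in Tau-, had a log2 fold change of 0.997 there, 0.56 with the covariate and 0.84 with the offsets. The 4 calls for the tau effect in Ch25h+/+ held in both.

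In the list of SREBP control and nuclear receptors, 2 of 13 genes passed for Ch25h loss in Tau+. Mbtps2, the protease that makes the second cut of SREBP proteins, rose from 27.8 ± 2.68 to 36.0 ± 5.21 CPM (SD, n = 4), with a log2 fold change of 0.37 and an edgeR adjusted p of 0.0484, and lost the call in 14 of the 16 fits without 1 library. Rxrb, a partner receptor of LXR, fell from 92.0 ± 6.29 to 70.8 ± 13.2 CPM (SD, n = 4), with a log2 fold change of -0.37 and an edgeR adjusted p of 0.0459, and lost the call in 9 of the 16. Rxrb also fell with Ch25h loss in Tau- (log2 fold change -0.42, edgeR adjusted p 0.0497), a call lost in 14 of 16. That value turned to 0.07 with the library class covariate and was -0.16 with the GC-corrected offsets. Mlxipl, which encodes the carbohydrate response factor ChREBP, rose with tau in Ch25h+/+ from 3.12 ± 0.299 to 5.81 ± 1.10 CPM (SD, n = 4), with a log2 fold change of 0.90 and an edgeR adjusted p of 0.0250, and lost the call in 5 of 16. The median of the list for Ch25h loss in Tau+ was -0.08. Srebf2, the cholesterol-directed relative of Srebf1, had a log2 fold change of 0.03 there and Insig1, which retains SREBP proteins in the endoplasmic reticulum, 0.26, neither past the threshold (edgeR adjusted p 0.843 and 0.122). Nr1h2 and Nr1h3, the LXR genes, were at -0.33 and -0.34 (edgeR adjusted p 0.0523 and 0.265).

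Among 13 genes of precursor supply and acetyl-CoA carboxylase regulation, Mid1ip1, which helps the carboxylase to polymerize, was the only one past the threshold. It fell with Ch25h loss in Tau+ from 87.1 ± 6.495 to 66.5 ± 9.27 CPM (SD, n = 4), with a log2 fold change of -0.39 and an edgeR adjusted p of 0.0334, and lost the call in 5 of 16 fits without 1 library. The list's median was -0.14 there. In the other elongation and desaturation genes, 14 tested, only Hacd4, a dehydratase-like protein of the elongation family, passed. It rose with tau in Ch25h+/+ from 2.63 ± 0.395 to 4.63 ± 0.976 CPM (SD, n = 4), with a log2 fold change of 0.81 and an edgeR adjusted p of 0.0183. It also rose with Ch25h loss in Tau-, to 5.26 ± 0.392 CPM (SD, n = 4), with a log2 fold change of 0.997 and an edgeR adjusted p of 0.0234. These calls were lost in 3 and 6 of 16 fits. The median of that list was 0.00 with tau in Ch25h+/+ and -0.02 with Ch25h loss in Tau+.

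None of 6 mitochondrial fatty acid synthesis genes and none of 15 fatty acid activation and esterification genes passed in any comparison. Of 14 fatty acid oxidation genes, Acads, the short-chain acyl-CoA dehydrogenase, rose with tau in Ch25h+/+ from 7.43 ± 0.692 to 10.96 ± 1.95 CPM (SD, n = 4), with a log2 fold change of 0.56 and an edgeR adjusted p of 0.0281, and lost the call in 6 of 16 fits. The oxidation list had a median of 0.17 with tau in Ch25h+/+ and of -0.13 with Ch25h loss in Tau+, against 0.05 and 0.01 for the 10 synthesis and desaturation genes.

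The cholesterol synthesis list had 2 of 21 genes past the threshold for Ch25h loss in Tau+, both higher, with a median of 0.15. Idi1, the isopentenyl diphosphate isomerase, rose from 14.7 ± 1.39 to 20.6 ± 0.950 CPM (SD, n = 4), with a log2 fold change of 0.49 and an edgeR adjusted p of 0.0140, and lost the call in 3 of 16 fits. Hsd17b7, a sterol ketone reductase, rose from 19.3 ± 2.86 to 25.7 ± 1.99 CPM (SD, n = 4), with a log2 fold change of 0.41 and an edgeR adjusted p of 0.0474, and lost it in 12 of 16. Of 8 LXR targets, Apoe, the main lipid carrier of brain, was 1571 ± 126.8 CPM in Ch25h+/+ Tau-, 2456 ± 491.2 in Ch25h+/+ Tau+, 1302 ± 136.3 in Ch25h-/- Tau- and 1369 ± 118.3 in Ch25h-/- Tau+ (SD, n = 4). It rose with tau in Ch25h+/+ (log2 fold change 0.64, edgeR adjusted p 0.00561) and fell with Ch25h loss in Tau+ (-0.84, 0.00112), and neither call was lost in any of 16 fits without 1 library. Both comparisons share the Ch25h+/+ Tau+ libraries, the group in which Srebf1 was highest too. The other 7 LXR targets did not pass for Ch25h loss in Tau+, with log2 fold changes of -0.38 (Abca1, a cholesterol exporter) to 0.06 (Abcg4).

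**Figure D5:**
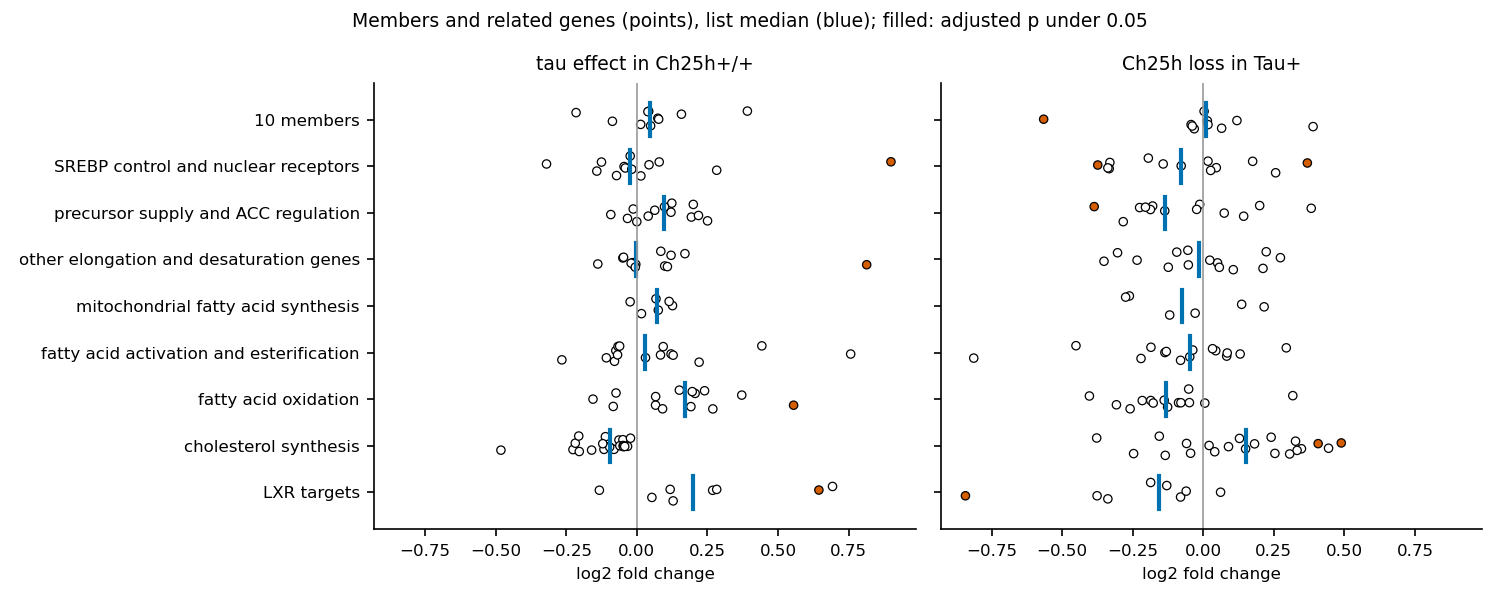
Each point is the log2 fold change (horizontal axis) of 1 gene of the 10 members or of a related list (rows), for the tau effect in Ch25h+/+ (left) and Ch25h loss in Tau+ (right), with the list median as a blue bar and filled points for an adjusted p under 0.05. The 10 members have medians of 0.05 and 0.01, the oxidation list 0.17 and -0.13, and the cholesterol synthesis list -0.10 and 0.15.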

How the data were processed

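The table deposited by the authors holds raw counts per gene and library, with no normalization. Per the submitters' processing notes STAR 2.7 and the builds GRCm38 and mm10 were used; the counting program, its treatment of shared reads and its use of strand are not given in the sources used here. Libraries were SMARTer mRNA libraries from total RNA, per the labels' protocols.

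Counts were tested with edgeR 4.0.16 in R 4.3.3 (quasi-likelihood F test, two-sided, TMM, filterByExpr), in 1 fit of 16 libraries with a mean per group, with Benjamini-Hochberg adjustment over 17736 genes and a threshold of 0.05. CPM was computed on TMM-scaled library sizes, and counts per library limit the precision of low genes. Reads carry no molecular identifiers, so floors cover counting error only. Exon lengths, positions and GC content came from GENCODE M21 (GRCm38), which held 98.9% of the symbols. GC content is that of the longest transcript of each gene. The alternatives were other size factors, other filters, DESeq2 1.42.0, limma-voom with quality weights (limma 3.58.1), a covariate for library class (rRNA-rich at 1000 CPM of CT010467.1 or more), GC-corrected offsets (a loess curve of each library on gene GC content, span 0.5), a fit of only the 8 libraries compared, and leaving out each library in turn. The quality weights let libraries count unequally, and limma-voom was not run without them.

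The members, lists and alternatives were chosen with earlier results of these data known. Named genes are the 10 members, every gene of the related lists past the threshold, the 5 genes most like the members' mean, the marker lists and the checks; Srebf2, Insig1, Nr1h2, Nr1h3, Abca1, Abcg4 and the neighbours of Elovl6 were chosen after their values were seen. Chi-square per degree of freedom between libraries of a group was 9.0 to 43.3, so none were duplicates, and replicates are numbered in record order. Blood markers summed to 2.32 to 37.7 CPM, with none past the threshold. Of the hippocampus markers, C1ql2 fell with Ch25h loss in Tau-, and no cortex marker passed.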

Additional observations from a re-analysis of the deposited data

Results flagged for a closer look

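Scd1 in Ch25h+/+ Tau- replicate 2 was at 152.0 CPM, while the other 3 libraries of the group were at 122.8 to 127.0 CPM. The gap to the nearest library was 0.856 of the group's range, past the 95% critical value of Dixon's test for 4 values. Over the 60 groups of values examined, chance flags about 5% of them.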

How the results depend on the processing

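A sign change was counted as a reversal only where either value was past the threshold or both lay more than 1 standard error from 0. By that definition none of the members' log2 fold changes reversed. Over the fits without 1 library, 62 of 800 values changed sign, from a size of at most 0.0648 to one of at most 0.139 (Scd1 for Ch25h loss in Tau+, without Ch25h+/+ Tau+ replicate 1). Over the other alternatives 25 of 390 did, from at most 0.119 to at most 0.23 (Acaca for Ch25h loss in Tau-, with the covariate for library class).

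For the tau effect in Ch25h+/+, 1 of the 10 genes (Srebf1) passed with no filter, with DESeq2 and with limma-voom with quality weights. The count without 1 library was 0 to 1. It was 1 without Ch25h+/+ Tau- replicate 2, Ch25h+/+ Tau+ replicate 1 or 2, or Ch25h-/- Tau+ replicate 3. For Ch25h loss in Tau+, 2 passed (Srebf1 and Elovl6) with no filter, with a mean of at least 50 counts, with DESeq2 and with limma-voom with quality weights. With the covariate for library class and with GC-corrected offsets 0 passed. The count was 1 to 2 without 1 library, and 2 without Ch25h+/+ Tau+ replicate 2 or 3 or Ch25h-/- Tau+ replicate 1. The causes of these changes were not tested. The counts for the other 3 comparisons stayed at 0 in every alternative run.

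Over all genes, the edgeR count for Ch25h loss in Tau+ was 629, against 10 with the covariate for library class and 204 with GC-corrected offsets. The count was 106 with only the 8 libraries compared, 1494 with DESeq2, 1883 with limma-voom with quality weights, and 108 to 1691 without 1 library. For Ch25h loss in Tau- the edgeR count was 182, against 0 with the covariate for library class (390 at an unadjusted p under 0.05) and 13 with GC-corrected offsets. There it was 522 with no filter, 1124 with DESeq2, 1388 with limma-voom with quality weights, 1229 with only the 8 libraries compared, and 3 to 1306 without 1 library. For the tau effect in Ch25h+/+, the tau effect in Ch25h-/- and the interaction the edgeR counts were 277, 7 and 6. Without 1 library they were 160 to 299, 6 to 13 and 0 to 22. In that order, DESeq2 gave 424, 14 and 55. Limma-voom with quality weights gave 498, 6 and 6, and edgeR with no filter 387, 28 and 57. The interaction has no fit of only 8 libraries, since it uses all 4 groups. No paired analysis was possible because the labels carry no replicate numbers. Elovl6 had the fewest counts of the 10 genes, and Scd1 the largest standard errors.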
